A study of Mus musculus with 4 samples.

Results

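The 42 genes described here carry out glucose uptake, glycolysis, lactate handling and the response to low oxygen. They were picked out of 23990 gene symbols by a list of names, which holds no threshold on a measured value. RNA of effector CD4 cells (CD44+CD4 by sorting) was compared between the inflamed spinal cord, labelled CNS, and draining lymph nodes (dLN), with 2 libraries per tissue. All mice were wild type C57BL/6 (C57BL/6J in the study's methods), were immunized with a MOG peptide in complete Freund's adjuvant and pertussis toxin to induce EAE, a mouse model of MS, and were taken at disease onset. No tissue came from untreated mice, so the dLN cells are the comparison group and not a resting one. The dLN of several mice were pooled, neither the age of the mice nor their number per library is given in the sources used here, and p-values therefore measure only the spread between these libraries. The study's methods describe PMA and ionomycin stimulation after the sort, whereas the sample labels speak of freshly sorted cells and name no stimulation.

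The authors deposited FPKM, the number of fragments for each kilobase of a transcript after scaling by the fragments of the library, so levels can be set side by side between genes of different length. Low values were whole multiples of 1 fragment (within 0.05) in 89.5% to 92.4% of cases, which gave depths of 18.55 M to 22.09 M fragments per library. Identity markers were those of CD4 T cells, with Cd3e at 328, 389, 104 and 89.2 FPKM and Cd4 at 502, 531, 82.0 and 66.7 FPKM (here and below in the order CNS 1, CNS 2, dLN 1, dLN 2). Cd44 was at 112, 112, 176 and 157 FPKM. CNS replicate 2 stood apart in myeloid transcripts. The 19 myeloid markers summed to 68.1 FPKM in CNS 1 and 524 FPKM in CNS 2, against 9.07 and 6.70 FPKM in the dLN libraries, 9 of 16 tested were called higher in CNS and 0 lower, and Lyz2 was at 3.22, 92.1, 0.062 and 0 FPKM. The list for CD8 T and NK cells summed to 57.7 and 48.5 FPKM in CNS against 4.56 and 4.11 FPKM in dLN, most of it Klrd1 at 48.8, 36.2, 0.87 and 0.53 FPKM (named after its values were seen), and 3 of its 4 tested genes were higher in CNS, while Cd8a and Ncr1 stayed under 1 FPKM in every library. Over all genes tested, 37.8% were called higher in CNS and 37.2% lower. The endothelial and erythroid list summed to 21.0, 29.5, 12.1 and 9.76 FPKM. Xist was near 0 in CNS and at 26.6 and 22.3 FPKM in dLN, while Y-linked Ddx3y was at 12.7 and 11.2 FPKM in CNS but at 0 in dLN, so the sex of the mice, the tissue and the deposited table cannot be told apart. In bulk RNA, fewer cells of a type and less RNA per cell cannot be told apart either.

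Glycolysis splits glucose into pyruvate in a fixed series of enzyme steps, and many of those steps can be run by any of several isozymes that differ in affinity and control. Activated T cells take up more glucose and release much of it as lactate. Hypoxia-inducible factor 1, a pair of HIF-1α (Hif1a) and ARNT, switches on most of these enzymes together with other targets. In oxygen, prolyl hydroxylases (Egln genes) mark HIF-1α for VHL and degradation, so its activity is set mainly at the protein level and cannot be read from Hif1a mRNA.

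The list did not move as a block. A gene was tested where its mean FPKM reached 1 in CNS or in dLN, which kept 40 of the 42 genes and left out Pfkfb4 and P4ha2. With limma on log2(FPKM + 1), whose standard errors are given as SE, 28 of the 40 differed at an adjusted p under 0.05, 19 higher and 9 lower in CNS. Over all 10634 genes tested 74.9% were called, 37.8% higher and 37.2% lower, so the called share of 70.0% was not above that of other genes. A 2-fold difference (log2 ratio of 1 or more either way) was reached by 14 of the called genes upward and 6 downward, where 39.2% of all genes were called at that fold. The median log2 ratio (CNS over dLN, as throughout) was 0.33 over the 40 genes and 0.05 over all genes, and the median size of the log2 ratio was 0.98 and 0.80. Pfkm, Aldoc and Hk3 reached the minimum of 1 FPKM in CNS alone. Where both tissues had to reach it, 37 of the genes were tested, 17 higher and 9 lower. Of all 9099 genes then tested, 3243 were higher and 3562 lower. The medians of the log2 ratio were then 0.23 and -0.04. Libraries of the tissues did not overlap for 36 of the 40 genes, 24 of them above and 12 below in CNS, beside 89.4% of all genes tested. The log2(FPKM + 1) scale understates the change of low genes, and scaling each library to the same summed FPKM lowered the all-gene median to -0.13 and the median of the 40 genes to 0.16, whereas equal upper quartiles raised them to 0.16 and 0.44.

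**Figure D1:**
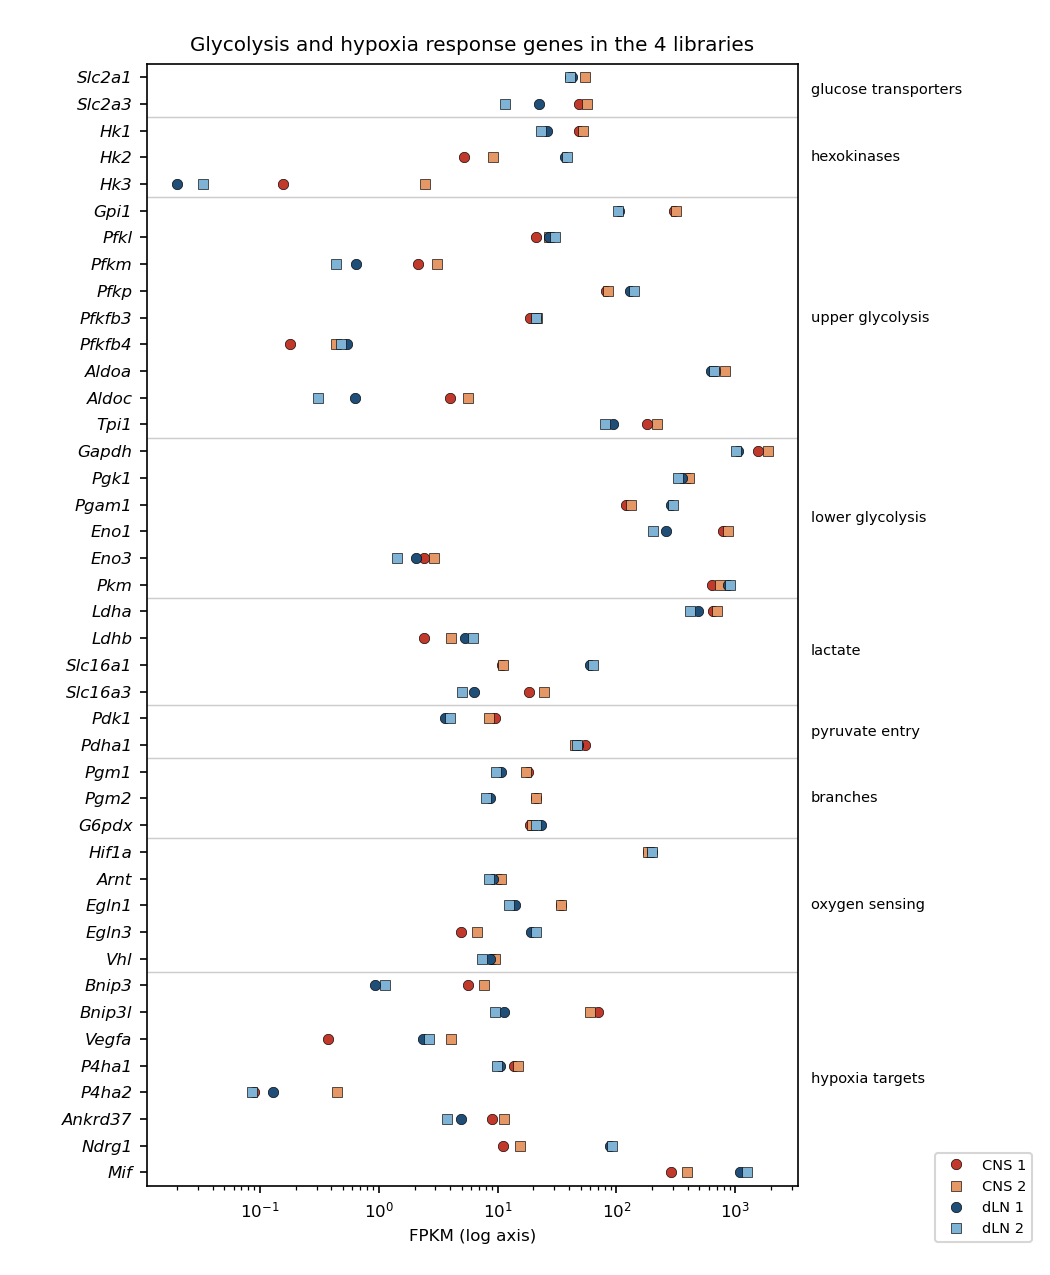
FPKM of each of the 42 genes (log axis) in the 4 libraries, red and orange for CNS 1 and CNS 2, dark and light blue for dLN 1 and dLN 2, grouped by role. Hk2, Slc16a1, Egln3, Ndrg1 and Mif sit to the left in CNS, and Bnip3l, Gpi1 and Eno1 to the right, whereas Hk3 and Vegfa are far apart between the CNS libraries.

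**Figure D2:**
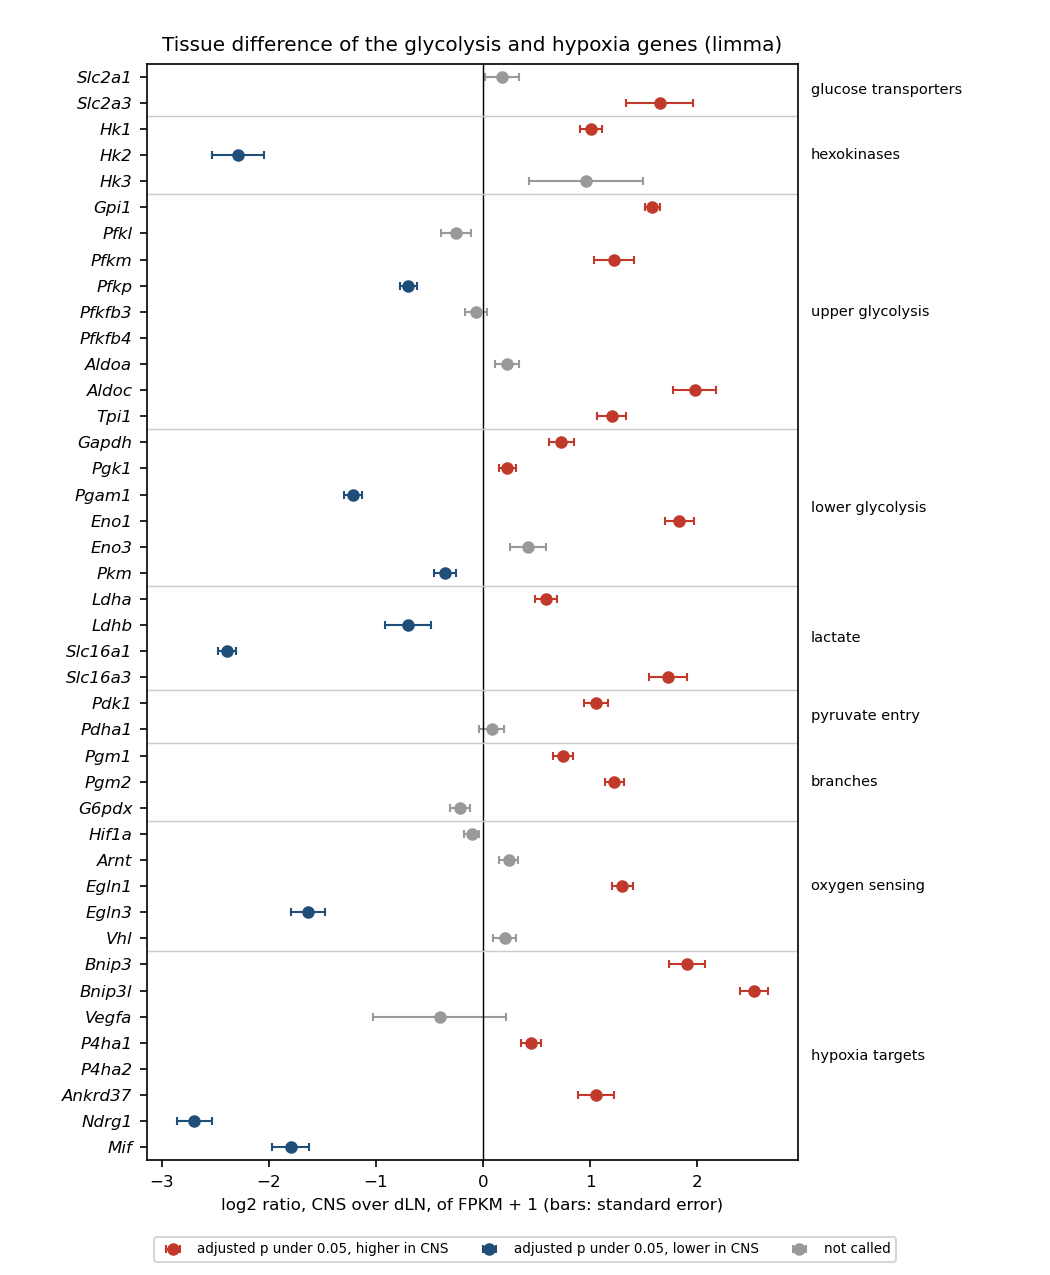
Log2 ratio of CNS over dLN on the log2(FPKM + 1) scale for the 40 genes tested, with bars of 1 standard error from limma; red genes were higher and blue genes lower at an adjusted p under 0.05, grey genes were not called. Calls in both directions stand inside most roles, from -2.70 for Ndrg1 to 2.53 for Bnip3l, and Pfkfb4 and P4ha2 have no point because they were not tested.

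In 3 pairs of genes whose products do the same job, one partner was higher and the other lower in CNS, each by more than 2-fold. These are the hexokinases Hk1 and Hk2, the lactate transporters Slc16a1 and Slc16a3, and the prolyl hydroxylases Egln1 and Egln3. Hk1 lay at the 2-fold limit (log2 ratio 1.01). It fell under that limit with equal summed FPKM (0.815) and with scaling by the median of ratios (0.987). The promoters of these pairs are shown because HIF-1 binds the core letters ACGTG or GCGTG, and a reader can compare the partners directly. Each is the run of 250 bases before the RefSeq start of build GRCm38.p6, which is the start of the gene's highest transcript in these data, written 5′ to 3′ on the gene's strand. Capitals mark the core letters on either strand (CACGT or CACGC when read on the opposite strand, and neighbouring matches merge into 1 run). Positions are chr10:62340422-62340671 (minus strand) for Hk1, inside the annotated span of the gene and upstream of this start, chr6:82774455-82774704 (minus) for Hk2, chr3:104638414-104638663 (plus) for Slc16a1, chr11:120948817-120949066 (plus) for Slc16a3, chr8:124949255-124949504 (minus) for Egln1 and chr12:54203875-54204124 (minus) for Egln3. The Slc16a3 window also lies inside the annotated span of its gene, upstream of the start of its highest transcript.
Hk1: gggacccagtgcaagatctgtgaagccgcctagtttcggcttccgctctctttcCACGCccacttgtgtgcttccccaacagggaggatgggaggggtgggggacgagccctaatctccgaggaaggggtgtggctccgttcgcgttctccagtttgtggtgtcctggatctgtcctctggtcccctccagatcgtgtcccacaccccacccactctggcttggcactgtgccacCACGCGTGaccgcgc
Hk2: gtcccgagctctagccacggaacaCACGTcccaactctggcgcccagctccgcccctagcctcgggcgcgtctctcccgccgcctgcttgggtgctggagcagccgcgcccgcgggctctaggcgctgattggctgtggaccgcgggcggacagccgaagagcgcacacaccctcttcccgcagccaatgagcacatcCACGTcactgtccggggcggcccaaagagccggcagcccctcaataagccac
Slc16a1: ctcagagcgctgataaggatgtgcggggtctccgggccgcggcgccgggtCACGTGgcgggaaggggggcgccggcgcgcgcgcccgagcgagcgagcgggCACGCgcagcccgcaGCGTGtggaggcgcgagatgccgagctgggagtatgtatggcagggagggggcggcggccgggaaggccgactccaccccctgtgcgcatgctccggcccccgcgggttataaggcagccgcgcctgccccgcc
Slc16a3: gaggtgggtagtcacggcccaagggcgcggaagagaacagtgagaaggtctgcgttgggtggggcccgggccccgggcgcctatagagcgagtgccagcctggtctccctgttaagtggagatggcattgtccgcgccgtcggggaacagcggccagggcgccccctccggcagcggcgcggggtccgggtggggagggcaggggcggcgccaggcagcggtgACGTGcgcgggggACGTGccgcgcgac
Egln1: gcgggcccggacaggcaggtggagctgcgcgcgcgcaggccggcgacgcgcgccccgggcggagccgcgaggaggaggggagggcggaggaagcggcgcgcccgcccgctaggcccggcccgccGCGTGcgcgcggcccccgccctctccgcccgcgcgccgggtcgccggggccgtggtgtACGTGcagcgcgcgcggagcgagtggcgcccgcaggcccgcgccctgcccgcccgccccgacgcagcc
Egln3: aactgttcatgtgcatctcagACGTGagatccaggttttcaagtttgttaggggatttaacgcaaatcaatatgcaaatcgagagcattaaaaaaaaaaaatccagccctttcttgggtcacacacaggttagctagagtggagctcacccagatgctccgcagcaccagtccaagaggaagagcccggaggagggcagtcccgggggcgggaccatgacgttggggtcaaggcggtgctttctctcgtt

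All of these promoters held ACGTG or GCGTG, in 3 runs for Slc16a1, 1 run for Egln3 and 2 runs for each of the others. Partners differed in which they held. Hk1 had GCGTG alone, Hk2, Slc16a3 and Egln3 had ACGTG alone, and Slc16a1 and Egln1 had both. Whether this bears on the direction of the change was not tested. RefSeq promoters were matched for 39 of the 42 genes, and 33 of the 39 (84.6%) held ACGTG or GCGTG on either strand. The share was 38.6% among all 32851 promoters of the same length and 57.0% among the 10817 promoters of tested genes. It was 15 of 17 (88.2%) for genes higher in CNS, 6 of 8 (75.0%) for genes lower in CNS and 10 of 12 (83.3%) for genes not called. CACGTG, the E-box that MYC binds and that also holds ACGTG, was found in 4 of the 39 (10.3%), Slc16a1 among them, in 6.02% of all promoters and in 8.54% of those of tested genes. The promoters of these genes were also richer in G and C (median 62.8%) than those of all genes (52.4%) and of tested genes (59.6%), and a match of so few letters is a description of the window and not a binding site.

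Glucose enters T cells through the transporters GLUT1 and GLUT3. Slc2a1, which encodes GLUT1, was at 40.5, 54.3, 42.1 and 40.5 FPKM. The tissues overlapped, and its log2 ratio of 0.18 had a 95% interval from -0.23 to 0.58 (limma adjusted p = 0.341). Without CNS 1 it was called higher in CNS (log2 ratio 0.39, adjusted p = 0.0284). Slc2a3, which encodes the high-affinity GLUT3, was at 48.7, 57.0, 22.5 and 11.5 FPKM, a log2 ratio of 1.65 (SE 0.31, limma adjusted p = 0.00668). Both CNS libraries lay above both dLN libraries, and GLUT3 made up 52.9% ± 2.40 (SD, n = 2) of the summed FPKM of these transporters in CNS against 28.4% ± 9.03 (SD, n = 2) in dLN. The call on Slc2a3 was lost when either CNS library was left out (adjusted p = 0.064 and 0.0794), with log2 ratios of 1.76 and 1.54.

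Hexokinases trap glucose in the cell as glucose 6-phosphate. Hk1 (Entrez gene 15275, chromosome 10, 62268855 to 62379908), the broadly expressed form, was at 48.3, 52.7, 25.9 and 23.3 FPKM. Hk2 (Entrez gene 15277, chromosome 6, 82725027 to 82774454), the form that growth signals and HIF-1 induce, was at 5.22, 9.17, 37.2 and 38.3 FPKM. The order of the pair was thus reversed between tissues in every library. Hk1 was higher in CNS by a log2 ratio of 1.01 (SE 0.10, limma adjusted p = 0.000693) and Hk2 was lower, with a log2 ratio of -2.29 (SE 0.24, limma adjusted p = 0.000899), 5.25-fold by the mean FPKM. The sum of the hexokinase genes changed little, at 53.6, 64.3, 63.1 and 61.7 FPKM, with overlapping tissues. Hk1 made up 86.0% ± 5.69 (SD, n = 2) of that sum in CNS and 39.4% ± 2.23 (SD, n = 2) in dLN.

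Hk3, a hexokinase known from myeloid cells, was at 0.157, 2.45, 0.0199 and 0.0334 FPKM, of which the dLN values stood for about 1 and 2 fragments. Its log2 ratio of 0.96 had an interval from -0.43 to 2.35 (limma adjusted p = 0.159), and it was called when either CNS library was left out (log2 ratio 1.75 without CNS 1 and 0.17 without CNS 2). Its high library was CNS 2, the one with the most Lyz2, Csf1r (0.668, 5.26, 0 and 0 FPKM) and Itgam (2.37, 6.95, 0.240 and 0.111 FPKM), and the part of myeloid RNA in the value was not tested.

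The steps from glucose 6-phosphate to the triose phosphates also moved in both directions. Gpi1, which makes fructose 6-phosphate, was at 308, 319, 106 and 102 FPKM, a log2 ratio of 1.58 (SE 0.07, limma adjusted p = 0.000103). Pfkp, the main phosphofructokinase of these cells and the enzyme of the next, committed step, was at 81.7, 85.6, 131 and 141 FPKM, a log2 ratio of -0.70 (SE 0.08, limma adjusted p = 0.00127). These neighbours in the pathway therefore changed places, with Gpi1 over Pfkp at 3.77 and 3.73 in CNS and at 0.804 and 0.726 in dLN. Pfkl, the liver type, was at 21.3, 26.9, 27.2 and 30.2 FPKM and did not pass (log2 ratio -0.25, interval -0.62 to 0.11, limma adjusted p = 0.159). Pfkm, the muscle type, was low in all libraries at 2.16, 3.09, 0.647 and 0.437 FPKM and was higher in CNS (log2 ratio 1.22, limma adjusted p = 0.00302). The phosphofructokinase sum was lower in CNS, at 105 and 116 FPKM against 159 and 172 FPKM.

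Pfkfb3 and Pfkfb4 encode the bifunctional enzymes that set fructose 2,6-bisphosphate, the activator of phosphofructokinase. Pfkfb3 was at 18.7, 21.6, 21.0 and 21.3 FPKM, with overlapping tissues and a log2 ratio of -0.07 (interval -0.34 to 0.20, limma adjusted p = 0.559). Pfkfb4 was between 0.179 and 0.544 FPKM, under the minimum for a test. Aldoa, the main aldolase, was at 680, 821, 619 and 657 FPKM and did not pass (log2 ratio 0.23, limma adjusted p = 0.123). It was called higher without CNS 1 (log2 ratio 0.36, adjusted p = 0.0284) and with equal upper quartiles (log2 ratio 0.36, adjusted p = 0.0271). Aldoc, the aldolase known from brain, was at 3.99, 5.60, 0.628 and 0.309 FPKM, a log2 ratio of 1.98 (SE 0.20, limma adjusted p = 0.00079), yet it made up under 1% of the aldolase FPKM in every library. Beside it, 5 of 13 neural and glial markers were tested. Nefl, Tubb3 and Gfap were called higher in CNS and Mbp lower (log2 ratio -0.28), where 37.8% of all genes were higher and 37.2% lower. Those 3 and Snap25, which was not called, reached the minimum of 1 FPKM in CNS alone. Nefl was at 1.34, 7.01, 0 and 0 FPKM and Tubb3 at 2.10, 4.40, 0.105 and 0.029 FPKM (both named after their values were seen). The 13 markers of that list summed to 53.5, 61.6, 56.2 and 58.1 FPKM, nearly all of it Mbp at 48.6, 44.5, 55.5 and 57.7 FPKM, while Gfap was at 0.655, 2.51, 0 and 0 FPKM and Snap25 at 0.316, 1.80, 0.003 and 0.025 FPKM. Their part in the Aldoc difference was not tested. Tpi1, which interconverts the triose phosphates, was at 181, 220, 93.3 and 79.7 FPKM, a log2 ratio of 1.20 (SE 0.14, limma adjusted p = 0.00109).

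Lower glycolysis held opposite changes at consecutive steps. Gapdh, often used as a reference gene, was the most abundant of the 42 genes in CNS at 1543 and 1900 FPKM, and stood at 1049 and 1013 FPKM in dLN. Its log2 ratio was 0.73 (SE 0.12, limma adjusted p = 0.00345). Pgk1, which makes the first ATP of the pathway, was at 398, 411, 359 and 332 FPKM. Its small difference (log2 ratio 0.23, limma adjusted p = 0.0459) was not called when any library was left out (adjusted p = 0.0805, 0.112, 0.0887 and 0.241) or with the replicate number as a block (adjusted p = 0.0838). Pgam1, the phosphoglycerate mutase, was at 121, 133, 290 and 299 FPKM, a log2 ratio of -1.21 (SE 0.08, limma adjusted p = 0.000258). Eno1 (Entrez gene 13806, chromosome 4, 150237197 to 150248873), the enolase of the next step, was at 783, 871, 261 and 204 FPKM, a log2 ratio of 1.83 (SE 0.14, limma adjusted p = 0.000328). Within a library Pgam1 over Eno1 was thus 0.154 and 0.153 in CNS and 1.11 and 1.46 in dLN. With 2 libraries in each tissue the smallest p of an exact permutation test is 0.333, so ratios and shares within a library are given with no test.

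Eno3, the muscle enolase, was at 2.40, 2.92, 2.04 and 1.43 FPKM and did not pass (log2 ratio 0.42, interval -0.01 to 0.86, limma adjusted p = 0.0714). Pkm, the pyruvate kinase that ends the pathway, was at 638, 749, 869 and 900 FPKM, lower in CNS by a log2 ratio of -0.35 (limma adjusted p = 0.0247). The call on Pkm was lost without dLN 1 (adjusted p = 0.0914) and without dLN 2 (adjusted p = 0.13). Pkm makes M1 and M2 forms from mutually exclusive exons, and M2 is the form of dividing cells. Transcripts carrying the M2 exon (chromosome 9, from 59675568) made up 95.5%, 96.4%, 94.6% and 94.3% of Pkm FPKM, and those with the M1 exon (from 59675029) the rest, so M2 prevailed in both tissues. Summed over the 16 enzymes from hexokinase to pyruvate kinase, the genes took 0.837% and 0.929% of all gene FPKM in CNS and 0.751% and 0.746% in dLN. The mRNA total of these enzymes was thus somewhat higher in CNS while its make-up differed step by step. Gapdh (mean 1722 FPKM in CNS against 1031 in dLN) and Eno1 (827 against 233) were among the rises. Pkm (694 against 885) and Pgam1 (127 against 295) were among the falls. The share of all 42 genes overlapped between the tissues, at 1.11%, 1.22%, 1.18% and 1.19% of gene FPKM.

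Lactate dehydrogenase turns pyruvate into lactate, and the monocarboxylate transporters MCT1 and MCT4 carry lactate across the membrane. Ldha was at 646, 708, 485 and 418 FPKM, a log2 ratio of 0.59 (SE 0.10, limma adjusted p = 0.0052). Ldhb, the form of oxidative tissues, was at 2.40, 4.07, 5.31 and 6.22 FPKM, a log2 ratio of -0.70 (SE 0.22, limma adjusted p = 0.0349). Its call was lost without CNS 1, dLN 1 or dLN 2 (adjusted p = 0.0975, 0.0801 and 0.153), and Ldha held over 98% of the pair's FPKM in every library.

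The transporters moved in opposite directions. Slc16a1 (Entrez gene 20501, chromosome 3, 104638664 to 104658462), which encodes MCT1 and carries lactate both in and out, was at 10.9, 11.1, 60.3 and 63.4 FPKM. Slc16a3 (Entrez gene 80879, chromosome 11, 120948484 to 120959000), which encodes MCT4, the exporter known from strongly glycolytic cells and a HIF-1 target, was at 18.3, 24.4, 6.39 and 5.04 FPKM. MCT1 was lower in CNS with a log2 ratio of -2.39 (SE 0.08, limma adjusted p = 8.45e-05), and MCT4 was higher with a log2 ratio of 1.73 (SE 0.18, limma adjusted p = 0.000831). The MCT1 share of the pair fell from 91.5% ± 1.56 (SD, n = 2) in dLN to 34.3% ± 4.25 (SD, n = 2) in CNS, while the sum of the pair was 29.1 and 35.5 FPKM in CNS against 66.7 and 68.5 FPKM in dLN. When only the highest transcript of a gene in each library was kept, the mean MCT1 share was 51.4% in CNS and 93.6% in dLN. The CNS libraries then differed in order. Slc16a1 (10.9 FPKM) lay above the highest Slc16a3 transcript (7.08 FPKM) in CNS 1 and below it in CNS 2 (11.1 against 15.2 FPKM). The deposited values divided Slc16a3 differently between its transcripts in each library, with 38.8%, 22.3%, 17.5% and 0.151% on the transcript of 2386 bases.

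**Figure D3:**
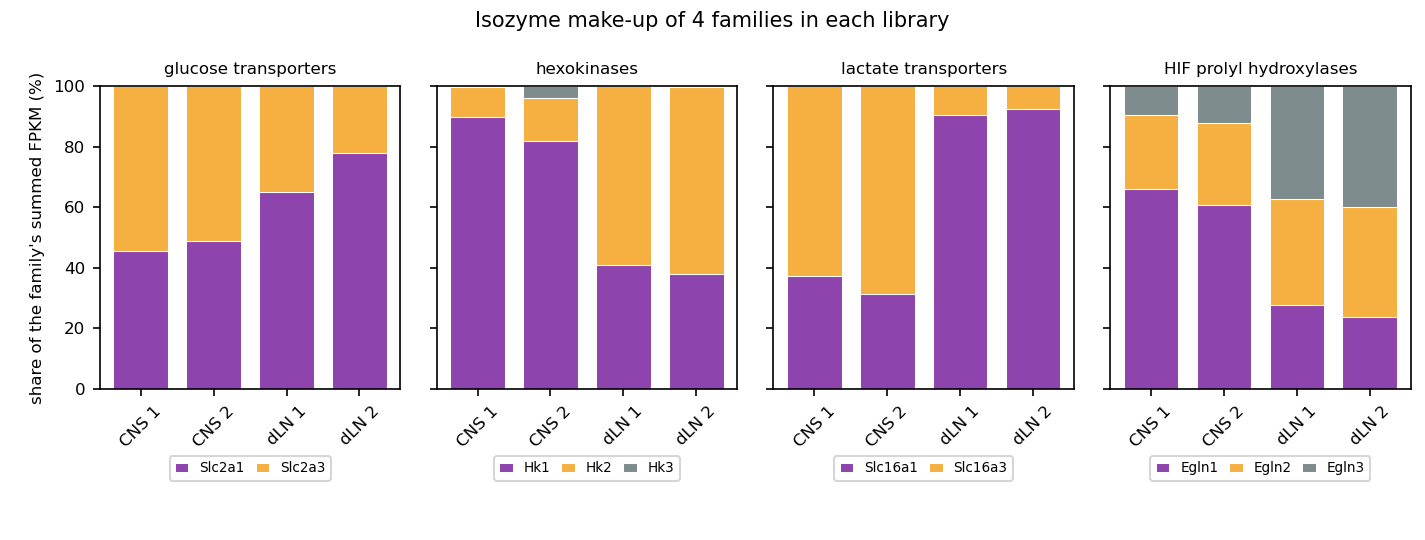
Share (%) of each gene in the summed FPKM of its family in the 4 libraries, for glucose transporters, hexokinases, lactate transporters and HIF prolyl hydroxylases; each bar is 1 library and colours are the genes named under each panel. The Hk1 bar takes 81.9% to 90.0% in CNS and 38% to 41% in dLN, and the Slc16a1 bar 31.3% to 37.3% in CNS and 90.4% to 92.6% in dLN.

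Pyruvate reaches the mitochondrion through pyruvate dehydrogenase, which Pdk1 shuts off by phosphorylation. Pdk1, a HIF-1 target, was at 9.56, 8.41, 3.62 and 3.98 FPKM, a log2 ratio of 1.05 (SE 0.11, limma adjusted p = 0.000861). Pdha1, the subunit that Pdk1 phosphorylates, was at 54.5, 45.1, 47.3 and 46.3 FPKM, with overlapping tissues and a log2 ratio of 0.08 (interval -0.22 to 0.38, limma adjusted p = 0.548). At the branch points, both genes named as phosphoglucomutases were higher in CNS. Pgm1 (as named in the tables, Entrez gene 66681, now called Pgm2) was at 18.1, 17.4, 10.7 and 9.64 FPKM, a log2 ratio of 0.75 (limma adjusted p = 0.00165). Pgm2 (Entrez gene 72157, now called Pgm1) was at 20.9, 20.9, 8.69 and 8.07 FPKM, a log2 ratio of 1.23 (limma adjusted p = 0.000284). G6pdx, which opens the pentose phosphate pathway, was at 18.6, 19.3, 23.4 and 21.0 FPKM and did not pass (log2 ratio -0.21, interval -0.46 to 0.03, limma adjusted p = 0.0952). Pgk1, Pdha1 and G6pdx lie on the X chromosome, and the part of sex in their values was not tested.

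Of the oxygen sensing genes, those of the factor itself were not called, while its hydroxylases moved in opposite directions. Hif1a was abundant at 185, 185, 201 and 199 FPKM, with a log2 ratio of -0.11 (interval -0.29 to 0.07, limma adjusted p = 0.215). Its sign depended on the scaling, at -0.30 with equal summed FPKM (adjusted p = 0.0148) and 0.03 with equal upper quartiles. Arnt was at 10.3, 10.8, 9.11 and 8.45 FPKM (log2 ratio 0.24, limma adjusted p = 0.0652), and Vhl, the ubiquitin ligase subunit, at 9.18, 9.57, 8.72 and 7.38 FPKM (log2 ratio 0.20, limma adjusted p = 0.159). Neither passed the test. With equal upper quartiles Arnt (log2 ratio 0.36, adjusted p = 0.0154) and Vhl (log2 ratio 0.32, adjusted p = 0.0388) were called higher, whereas for Arnt the highest transcript alone gave the opposite sign (log2 ratio -0.31, limma adjusted p = 0.0475).

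Egln1 (Entrez gene 112405, chromosome 8, 124908587 to 124949254), which encodes PHD2, the main oxygen sensor, was at 34.3, 34.0, 14.1 and 12.5 FPKM. Egln3 (Entrez gene 112407, chromosome 12, 54178981 to 54203874), which encodes PHD3, was at 4.90, 6.76, 19.0 and 21.1 FPKM. Both are known HIF-1 targets, yet Egln1 was higher in CNS with a log2 ratio of 1.30 (SE 0.10, limma adjusted p = 0.000297) and Egln3 lower with a log2 ratio of -1.63 (SE 0.16, limma adjusted p = 0.00068). Together with Egln2, which is not among the 42 genes, the hydroxylases summed to 52.0, 55.9, 51.0 and 52.7 FPKM. The total was therefore nearly the same, and Egln1 took 63.4% ± 3.65 (SD, n = 2) of it in CNS and 25.7% ± 2.73 (SD, n = 2) in dLN.

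Of the 7 HIF target genes outside metabolism that were tested, 4 were higher and 2 lower, where 37.8% of all genes were higher and 37.2% lower. Bnip3l and Bnip3 encode receptors of mitophagy, the removal of mitochondria. Bnip3l was at 70.4, 60.2, 11.4 and 9.54 FPKM, a log2 ratio of 2.53 (SE 0.13, limma adjusted p = 0.000128) and the largest rise among the 40 genes on this scale. With a pseudocount of 0.1 Aldoc (3.15) and Hk3 (2.68) lay above Bnip3l (2.63). Bnip3 was at 5.63, 7.67, 0.928 and 1.12 FPKM, a log2 ratio of 1.91 (SE 0.17, limma adjusted p = 0.000511). Ankrd37, a small HIF-1 target of little known function, was at 9.005, 11.3, 4.97 and 3.78 FPKM and was higher in CNS (limma adjusted p = 0.00349). P4ha1, a collagen prolyl hydroxylase subunit, was at 13.7, 14.8, 10.4 and 9.92 FPKM, a log2 ratio of 0.45 (limma adjusted p = 0.0085) whose call was lost without CNS 2 or dLN 2 (adjusted p = 0.0557 and 0.0597). P4ha2 was between 0.0865 and 0.442 FPKM and was not tested.

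The same group held 2 falls. Ndrg1, a stress-induced gene tied to T cell anergy and hypoxia, was at 11.0, 15.4, 87.9 and 92.0 FPKM, a log2 ratio of -2.70 (SE 0.17, limma adjusted p = 0.000191) and the largest fall among the 40 genes. Mif, a cytokine that many cells store, was at 289, 395, 1103 and 1256 FPKM, a log2 ratio of -1.80 (SE 0.17, limma adjusted p = 0.000606). In dLN it was the most abundant of the 42 genes. Vegfa, the angiogenic growth factor, was at 0.377, 4.04, 2.36 and 2.63 FPKM. The CNS libraries lay on either side of dLN, and its log2 ratio of -0.41 (limma adjusted p = 0.571) became 0.53 without CNS 1 (adjusted p = 0.0355) and -1.34 without CNS 2 (adjusted p = 0.00615).

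The CNS libraries differed from each other in most of these genes. Of the 42, 36 (85.7%) were higher in CNS 2 than in CNS 1, against 54.3% of all genes tested, with a median difference of 0.21 on the log2(FPKM + 1) scale and 0.02 for all genes. For the 19 myeloid markers the median difference was 1.75. Vegfa (1.87) and Hk3 (1.58) had the largest differences among the 42 genes. Without CNS 2 the median log2 ratio was 0.21 over the 40 genes and 0.02 over all genes. Without CNS 1 these medians were 0.51 and 0.05. The part of myeloid RNA was not tested.

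**Figure D4:**
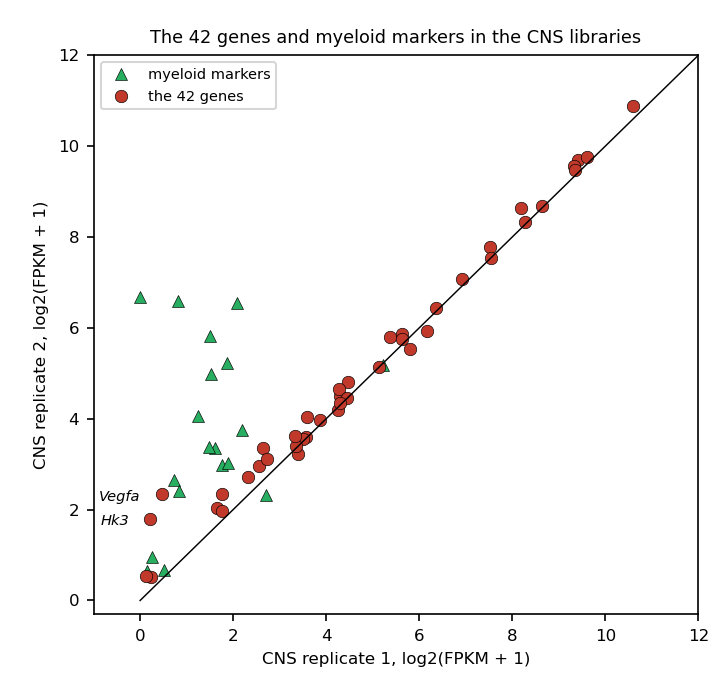
Log2(FPKM + 1) in CNS replicate 1 (x axis) and CNS replicate 2 (y axis) for the 42 genes (red circles) and 19 myeloid markers (green triangles), with the line of equal values. Most red circles lie on or just above the line (36 of 42 above), Vegfa and Hk3 lie well above it, and 17 of 19 myeloid markers lie above it.

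Of 25 other genes of glycolysis and lactate handling, 11 were tested, and 4 were higher and 3 lower. The called share was 63.6% beside 74.9% over all genes. Slc2a9, Slc2a8 and Pfkfb2, all called higher, reached the minimum of 1 FPKM in CNS and not in dLN, and 1 gene was higher where both tissues had to reach it. The rises were led by the sugar transporter genes Slc2a9 (log2 ratio 2.13) and Slc2a8 (2.02) and by Bpgm (0.61), and the falls by the ADP-dependent glucokinase Adpgk (-2.00), 9630033F20Rik, the gene of the fructose bisphosphatase TIGAR (-1.04), and Pgam5 (-0.94), a mitochondrial phosphatase. All 9 genes of the pentose phosphate pathway were tested, with 4 higher and 4 lower, a called share of 88.9% beside 74.9% over all genes. Among the rises were Taldo1 (1.53), Prps2 (1.35) and Pgls (1.17), and among the falls Prps1 (-1.52), Rpia (-1.40) and Tkt (-0.61). Prps1 and Prps2 make the same nucleotide precursor and so form another pair of isozymes that moved in opposite directions. Both lie on the X chromosome, and the part of sex in their values was not tested.

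Of 27 other hypoxia response genes, 22 were tested, with 9 higher and 11 lower and a median log2 ratio of -0.34, beside 37.8% higher and 37.2% lower over all genes. Car12, Ak4 and Plod2, all called lower, reached the minimum of 1 FPKM in dLN alone, and Plod1, called higher, in CNS alone. Where both tissues had to reach it, 8 were higher and 8 lower. Ddit4, an inhibitor of mTOR complex 1, had a log2 ratio of 3.80, with 203 ± 38.0 FPKM (SD, n = 2) in CNS against 13.7 ± 3.20 FPKM (SD, n = 2) in dLN. Plin2, which coats lipid droplets (2.50), and Epas1, which encodes HIF-2α (2.02), followed. Car12, a carbonic anhydrase (-2.90), the transferrin receptor gene Tfrc (-2.80) and Hmox1, which degrades heme (-1.93), fell furthest.

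Of 16 regulators of glycolytic genes, all tested, 3 were higher and 9 lower in CNS, a called share of 75.0% beside 74.9% over all genes. Txnip, which restrains glucose uptake, had the largest rise with a log2 ratio of 5.06 (205 ± 19.2 FPKM in CNS against 5.19 ± 0.51 FPKM in dLN, SD, n = 2). Prkaa1 of AMPK (0.98) and Tsc2 (0.35) were the other rises. Myc (-3.95), Irf4 (-3.31) and Rheb (-1.08), which promote growth and glycolysis in activated T cells, had the largest falls, with Myc at 22.1, 26.5, 363 and 417 FPKM. Of 20 genes that stimulation induces, 14 were lower and 4 higher in CNS (median log2 ratio -2.61), where 37.2% of all genes were lower and 37.8% higher. Il2 was at 18.2, 38.8, 5363 and 6176 FPKM, and Cd69 went in the other direction at 516, 510, 189 and 221 FPKM. Fos (3.29), Ifng (1.43) and Fosb (1.14) were the other rises. The list also holds cytokines of T cell subsets, among them Il4 (-7.93), Il22 (-5.71) and Il17a (-5.01), so its count does not measure stimulation alone. How far the degree of stimulation enters the differences of the 42 genes was not tested.

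**Figure D5:**
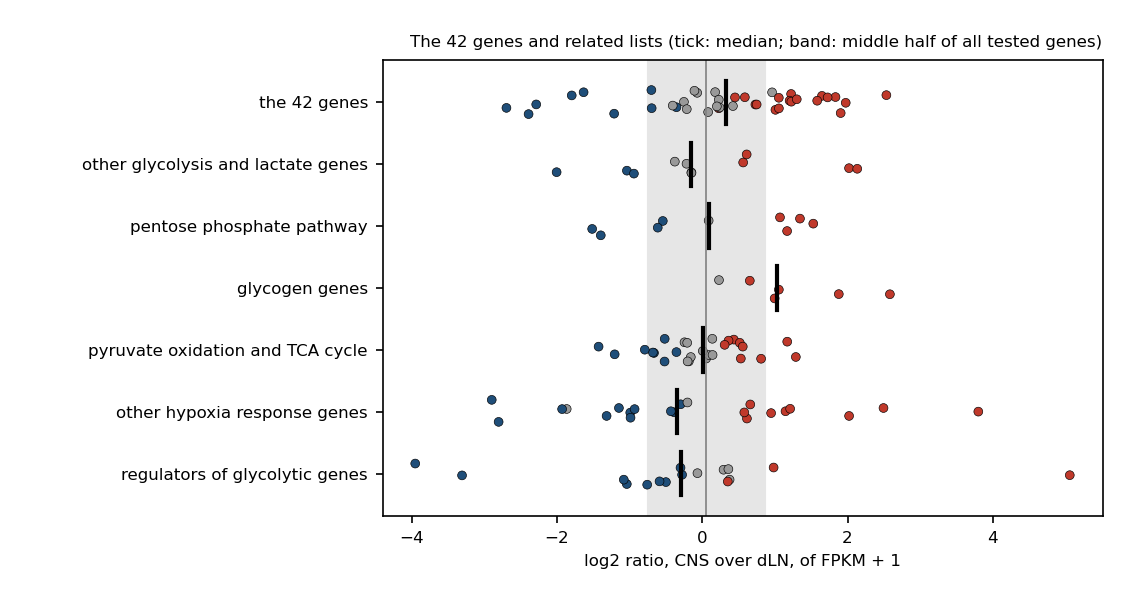
Log2 ratio of CNS over dLN on the log2(FPKM + 1) scale for the tested genes of the 42 and of 6 related lists, 1 point a gene, red higher, blue lower and grey not called; black ticks are list medians, the vertical line is the median of all tested genes (0.05) and the grey band holds the middle 50% of them. Every list but the glycogen genes has calls on both sides, and Txnip (5.06) and Myc (-3.95) are the outermost points.

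Several of the genes share near-identical sequence with other annotated genes, which can take or give reads, so their levels are uncertain. Whether those genes are copies elsewhere in the genome or overlap the same place was not checked. By sequence, 77 other annotated genes shared at least 95% identity over 300 bases with Gapdh, 5 with Bnip3, 4 each with Mif and Pgk1, 3 each with Eno1 and Ldha, and 1 each with Bnip3l, Gpi1, Ldhb, Ndrg1, Pdha1, Pfkp, Pgam1, Pkm and Tpi1. The genes of the opposite-moving pairs, Hk1, Hk2, Slc16a1, Slc16a3, Egln1 and Egln3, had no such match.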

How the data were processed

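TruSeq RNA libraries of CD44+CD4 cells were sequenced on an Illumina HiSeq2500, with 2 libraries per tissue. Each tissue has its own table, in which the authors deposited the FPKM of 33819 RefSeq transcripts (mm10). The aligner and the program that computed FPKM are not given in the sources used here. In the CNS table both library names share 1 header cell, and the columns of values were read in the order named there. Transcripts were joined by ID and summed by gene symbol. The 565 transcripts without a symbol (0.142% to 0.446% of FPKM) were left out.

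Genes whose mean FPKM reached 1 in either tissue were tested on log2(FPKM + 1) with limma 3.58.1 (lmFit, eBayes with trend; R 4.3.3), with tissue as the only term, all 4 libraries and Benjamini-Hochberg adjustment over all 10634 genes at 0.05. Depth came from the steps of low FPKM values and 3 fragments per library served as the floor. The fit and the depth estimate were tested on simulated data. Near-identical sequences came from BLAST 2.17.0 against GENCODE M21 transcripts, promoters from RefSeq (GRCm38.p6), with no entry matched for Bnip3l, Ndrg1 and Slc2a3. Python 3.11.15, numpy 2.4.6, pandas 2.3.3 and matplotlib 3.10.9 did the rest. Every one of the 42 genes is named. Of each related list, the 3 largest called rises and falls are named. The genes, lists and tests were chosen with earlier results of these data known. Alternatives covered the pseudocount, filters, 3 scalings, the highest transcript in each library, a replicate block, eBayes without trend and leaving out each library.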

Additional observations from a re-analysis of the deposited data

How the results depend on the processing

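Of 515 comparisons of the tested genes with an alternative setting, 472 kept direction and call, 22 lost the call, 12 gained one and 9 changed sign; the cause was not tested. Equal summed FPKM gave log2 ratios of -0.016 for Slc2a1 and -0.11 for Pdha1, and equal upper quartiles 0.059 for Pfkfb3 and 0.027 for Hif1a. Leaving out each library gave ranges of -0.169 to 0.029 for Pfkfb3, -0.054 to 0.216 for Pdha1, -1.34 to 0.53 for Vegfa and -0.03 to 0.386 for Slc2a1, with the sign changed without CNS replicate 1 for the first 3 and without CNS replicate 2 for Slc2a1. The highest transcript in each library gave Arnt -0.31 and a mean Slc16a1 share of 51.4% in CNS and 93.6% in dLN. None of these genes except Vegfa and Arnt was called with its changed sign. Calls of Pgk1, Pkm, Ldhb, Slc2a3 and P4ha1 were lost under some settings, and equal summed FPKM called Pfkl (-0.44) and G6pdx (-0.40) lower and equal upper quartiles Eno3 (0.51) higher. Of the other genes of glycolysis and lactate handling, 1 was higher where both tissues had to reach 1 FPKM and 5 were lower with equal summed FPKM, and leaving out each library in turn gave 3 to 4 higher and 3 to 5 lower (5 without CNS replicate 2). Of the regulators, 5 were higher with equal upper quartiles, and leaving out each library gave 2 to 5 higher (5 without CNS replicate 1). Scaling moved the share of higher calls over all genes from 50.4% to 43.1% (equal sums) or 55.6% (upper quartiles). The replicate number did not pair the samples (correlation of deviations 0.09 across genes), and as a block it ended 1 call among the 40 genes, that of Pgk1 (0.23, adjusted p = 0.0838), and left 18 higher and 9 lower. Depth limits Hk3, Pfkfb4 and P4ha2, which rest on few fragments, and with 2 libraries per tissue a lone sample is assumed to vary like the others when its partner is left out.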

Other observations

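Of 10 listed glycogen genes 6 were tested, and 5 were higher and 0 lower in CNS. Their median log2 ratio was 1.03. Among all genes tested 37.8% were higher and 37.2% lower. With a minimum of 1 FPKM in both tissues 4 were higher, since Pygl reached it in CNS alone. Pygl, a glycogen phosphorylase, was at 4.46 and 5.58 FPKM in CNS and listed at 0 in both dLN libraries, at least 81.7-fold higher against a floor of 3 fragments per library. Gyg, the primer of glycogen, had a log2 ratio of 1.88, with 40.3 ± 2.48 FPKM in CNS against 10.2 ± 0.91 FPKM in dLN (SD, n = 2). Pygb, another phosphorylase, had a log2 ratio of 1.05.

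Pyruvate oxidation and the TCA cycle were close to evenly divided, with 9 of 27 tested genes higher, 8 lower and a median log2 ratio of 0.01. The called share was 63.0%, beside 74.9% over all genes. With a minimum of 1 FPKM in both tissues 8 were higher and 8 lower, since Pdk2 reached it in CNS alone. Pdk2 (1.29), Mpc2 of the mitochondrial pyruvate carrier (1.17) and Idh3b (0.81) led the rises. Pdp2 (-1.43), the phosphatase that opposes the Pdk kinases, Fh1 (-1.21) and Dlst (-0.79) led the falls. Transcripts of Gapdh split unusually in CNS replicate 2, where the transcript of 1274 bases took 0.807% of the gene against 16.4%, 17.4% and 17.9% in CNS 1, dLN 1 and dLN 2. The Aldoa transcript of 1588 bases took 6.44% and 5.99% in CNS and 12.3% and 11.5% in dLN.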
